A study of Bos taurus with 9 samples.

Results

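The 10 genes described here are the G1 cyclins and the CDK inhibitors that act on them: the D-type cyclins CCND1, CCND2 and CCND3, the E-type cyclins CCNE1 and CCNE2, the CIP/KIP inhibitors CDKN1A (p21), CDKN1B (p27) and CDKN1C (p57), and the INK4 inhibitors CDKN2B (p15) and CDKN2C (p18). They were taken by gene symbol from a table of 21512 genes, in which each of the 10 symbols was found, and all 10 had enough counts to be tested. The table comes from RNA sequencing of bovine ear fibroblasts (BEFs, day 0) and of chemically induced adipocyte-like cells (CiADCs) after 3 days (CiADCs-3d) and 6 days (CiADCs-6d), with 3 samples in each group. The question was how each gene differed on the induction days from BEFs, and between the induction days.

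All samples were labelled wild type. The BEFs were titled control, although their treatment label carries the same word, reprogramming, as that of the CiADCs. BEFs were grown with fetal bovine serum, and CiADCs were kept in N2B27 medium that held 10 µM RepSox, 500 µg/mL VPA and 1 µM TTNPB. RepSox inhibits the TGF-beta type I receptor, VPA (valproic acid) is a histone deacetylase inhibitor, and TTNPB is a retinoic acid receptor agonist. None of the 9 samples holds untreated cells of day 3 or day 6, which means that effects of the compounds, of the change of medium and of time in culture cannot be told apart. Neither the labels nor the methods say whether the samples of a group came from different animals or inductions, so the p-values measure only the spread between these samples, which may be technical.

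In G1, the D-type cyclins join CDK4 or CDK6 and the E-type cyclins join CDK2, and these kinases phosphorylate the retinoblastoma protein, which releases E2F factors to transcribe the genes of S phase. INK4 proteins bind CDK4 and CDK6 and keep D-type cyclins off them, while CIP/KIP proteins bind whole cyclin-CDK complexes and can block CDK2. Fibroblasts are known to leave the cycle when inhibitors of both kinds accumulate, and differentiating preadipocytes leave it for good before they store lipid. Much of the control of these proteins, CDKN1B and the E-type cyclins above all, lies in their degradation, which RNA does not show.

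Expected counts summed to between 18509244 and 24071580 per sample. In a principal component analysis the CiADCs samples numbered 1 on both days lay nearer to the other induction day than their group did, so values that change without them are given. Fibroblast markers summed to 20060 to 20650 FPKM in BEFs, 8678 to 11150 FPKM in CiADCs-3d and 5967 to 7999 FPKM in CiADCs-6d. VIM, an intermediate filament gene, fell by 3.06 on the log2 scale by day 6. Of the 10 fibroblast markers, 4 were lower and 2 higher (PDGFRA and PDGFRB) on day 3, against 29.1% and 30.9% of all tested genes. On day 6, 7 were lower and 0 higher, against 31.9% and 35.6%. Adipocyte markers summed to only 24.4 to 29.3 FPKM in BEFs, 21.1 to 35.2 FPKM in CiADCs-3d and 15.2 to 16.7 FPKM in CiADCs-6d. The summed level on day 6 was thus below that of BEFs. Of 9 tested markers, though, 5 were higher and 2 lower on day 6, against 35.6% and 31.9% of all tested genes. The higher ones were ADIPOQ, CEBPA, GPD1, LPL and PPARG, and the lower ones CIDEC and FABP4. FABP4, the fatty acid binding protein gene, made most of the sum in BEFs, with a mean of 17.2 FPKM. It was at 1.4 FPKM on day 6, so the lower sum rested on this gene. FABP4 fell by 3.64 on the log2 scale and PPARG, the master regulator of adipocytes, was 0.63 higher on day 6. In bulk RNA, fewer cells that express a gene and less of its RNA per cell cannot be told apart.

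Of the 10 genes, 3 were lower and 2 higher in CiADCs-3d than in BEFs at an adjusted p under 0.05 (edgeR quasi-likelihood test with Benjamini-Hochberg adjustment over 14020 tested genes). Among all tested genes 29.1% were lower and 30.9% higher. If a log2 fold change of at least 1 was required too, 2 were lower and 2 higher, against 9.94% and 18.2% of all tested genes. On day 6, 4 of the 10 were lower and 3 higher than in BEFs, against 31.9% and 35.6% of all tested genes, and with the fold threshold 0 were lower and 2 higher, against 13.4% and 21.9%. From day 3 to day 6, 3 rose and 1 fell, against 14.4% and 13.6% of all tested genes, and with the fold threshold 2 rose and 0 fell, against 4.09% and 3.22%. In CPM, the count scaled to library size, all CiADCs-3d samples lay below all BEFs samples for 4 of the 10 genes and above them for 3, against 35.4% and 35.1% of all tested genes. The CiADCs-6d samples lay below BEFs for 4 and above for 3, against 35% and 37.7%, and below CiADCs-3d for 1 and above for 3, against 18% and 19.1%. Against BEFs, the counts for the 10 genes were thus near the background of a data set where most genes differed. The median log2 fold change of the 10 was -0.22 on day 3, 0.11 on day 6 and 0.25 between the induction days, beside 0.006, 0.033 and 0.006 over all tested genes. By role, the 3 lower genes of day 3 were all cyclins and the 2 higher ones were both inhibitors, and on day 6 the lower genes were 3 cyclins and CDKN2C, the higher ones CCND2, CDKN1A and CDKN2B.

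**Figure D1:**
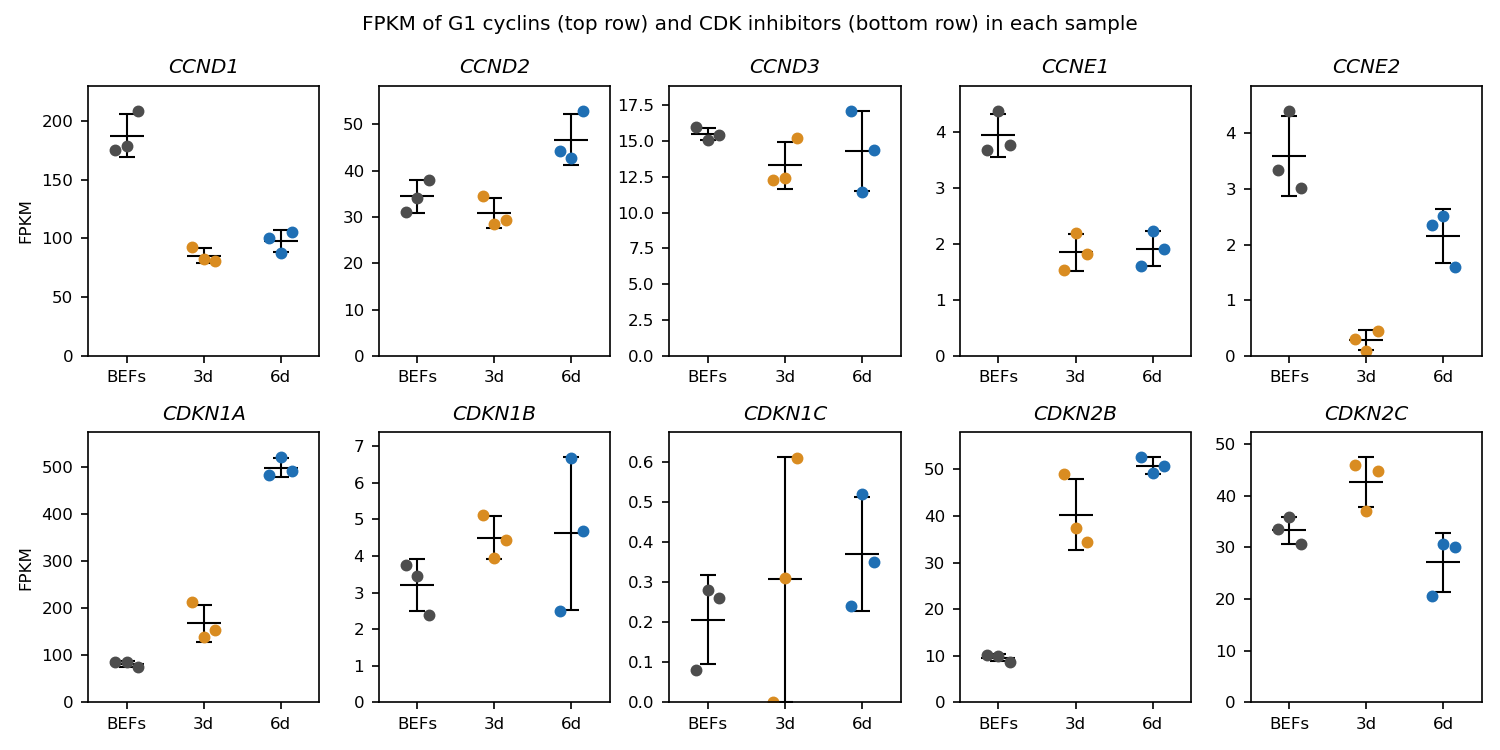
FPKM of each gene in BEFs, CiADCs-3d (3d) and CiADCs-6d (6d), one panel per gene with its own axis from 0; points are the 3 samples of a group, and bars the mean with the SD. CCND1 is lower in all 6 CiADCs samples than in BEFs, CDKN1A steps up from 82.1 to 168 to 499 FPKM on average, and CCNE2 is at its lowest in CiADCs-3d.

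Levels are compared between genes as FPKM, which is scaled for transcript length. In BEFs, CCND1 stood highest with 187 ± 18.6 FPKM (SD, n = 3), followed by CDKN1A with 82.1 ± 6.38 FPKM. CCND2 with 34.4 ± 3.49 FPKM and CDKN2C with 33.3 ± 2.63 FPKM came next, and their ranges overlapped. Below them lay CCND3, then CDKN2B, then CCNE1, CCNE2 and CDKN1B, whose ranges overlapped between neighbours, and last CDKN1C. In both CiADCs groups CDKN1A and CCND1 had changed places. CDKN2B, sixth in BEFs, overlapped CDKN2C for the third place on day 3 and CCND2 for the third place on day 6. CDKN1C stayed at or below 0.61 FPKM in every sample.

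CCND1, the main D-type cyclin of fibroblasts and a target of serum and adhesion signals, was 175, 178 and 209 FPKM in the BEFs samples, 92.4, 82.5 and 81.1 FPKM in CiADCs-3d and 100.0, 87.4 and 105.6 FPKM in CiADCs-6d. Every CiADCs sample of either day lay below every BEFs sample, and the induction days overlapped. CCND1 fell by 1.16 on the log2 scale by day 3 (SE 0.11, adjusted p = 2.98e-06) and was at -0.97 against BEFs on day 6 (SE 0.11, adjusted p = 9.58e-06). The difference between the induction days was 0.18 (SE 0.11) with an adjusted p of 0.249.

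CCND2, which pairs with the same kinases, took another course. Its level was 31.1, 34.1 and 38.1 FPKM in BEFs, 34.5, 28.5 and 29.4 FPKM in CiADCs-3d and 44.3, 42.8 and 53.0 FPKM in CiADCs-6d. BEFs and CiADCs-3d overlapped, while all CiADCs-6d samples were above the other 6. Against BEFs the log2 fold change was -0.20 on day 3 (SE 0.13, adjusted p = 0.204), and CCND2 was higher by 0.40 on day 6 (SE 0.13, adjusted p = 0.0134). It rose by 0.60 between the induction days (SE 0.13, adjusted p = 0.00561). The call of day 6 against BEFs was lost without BEFs sample 1 (0.33, adjusted p = 0.0755), without BEFs sample 2 (0.38, adjusted p = 0.053) and without CiADCs-6d sample 3 (0.27, adjusted p = 0.0851), whereas the rise from day 3 to day 6 passed in every leave-one-out fit.

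CCND3, the D-type cyclin of many differentiated cells, was 15.9, 15.1 and 15.4 FPKM in BEFs, 12.3, 12.4 and 15.2 FPKM in CiADCs-3d and 17.1, 11.5 and 14.4 FPKM in CiADCs-6d. It passed the test in no comparison, with log2 fold changes of -0.29 (SE 0.15, adjusted p = 0.108) on day 3 and -0.18 (SE 0.15, adjusted p = 0.283) on day 6. Without CiADCs-6d sample 1, its highest sample, the day 6 value was -0.35 and passed (adjusted p = 0.0466).

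The D-type cyclins together were lower in CiADCs than in BEFs, and their makeup differed. Their FPKM summed to 237 ± 21.7 in BEFs, 129 ± 8.47 on day 3 and 159 ± 15.8 on day 6 (SD, n = 3), with no overlap between any of the groups. CCND1 made up 78.9 ± 0.63% of the sum in BEFs, 65.9 ± 1.26% on day 3 and 61.6 ± 0.47% on day 6. The share of CCND2 was 14.5 ± 0.50%, 23.8 ± 0.91% and 29.4 ± 1.73% in the same order. For each of these sums and shares the exact permutation test of 3 against 3 samples (two-sided) gave p = 0.1, the smallest value that this design allows.

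**Figure D2:**
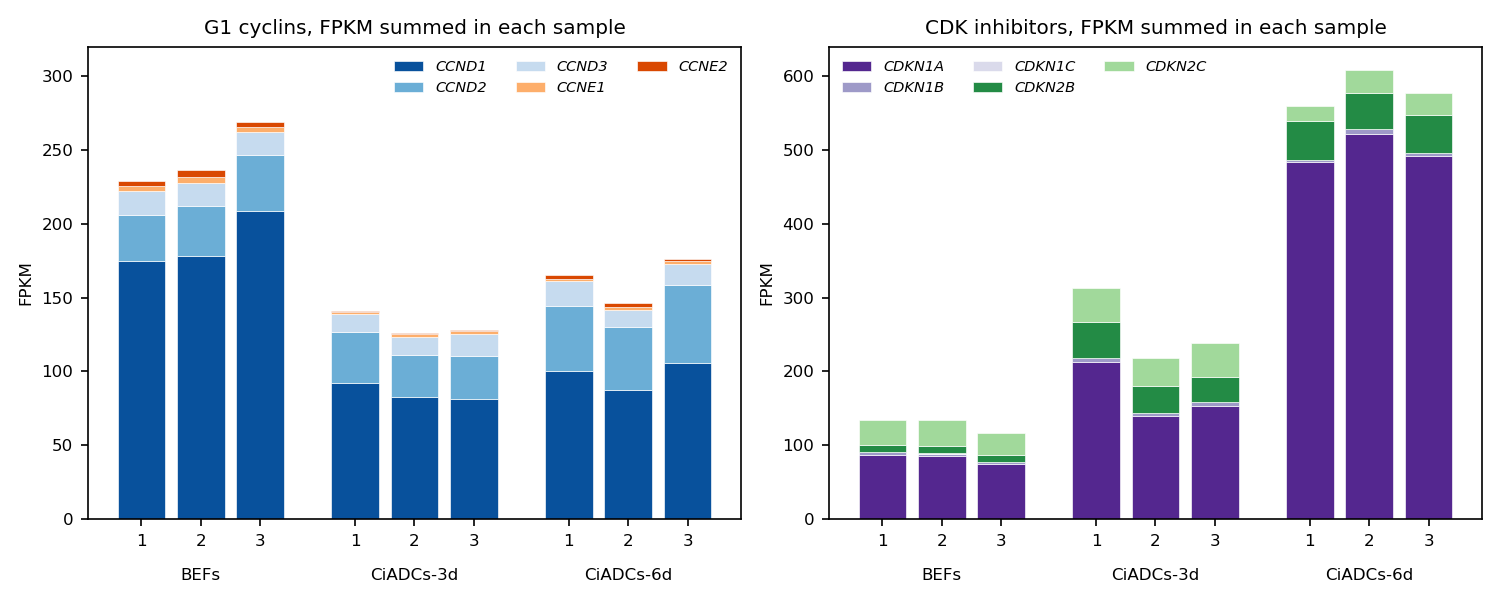
FPKM summed over the 5 cyclins and over the 5 inhibitors in each sample, with the genes stacked in colour; the horizontal axis gives the sample numbers 1 to 3 within BEFs, CiADCs-3d and CiADCs-6d. CCND1 fills most of every cyclin bar, and CDKN1A most of every inhibitor bar, which reaches 560 to 609 FPKM in CiADCs-6d.

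CCNE1, which activates CDK2 at the end of G1, was 3.68, 4.39 and 3.77 FPKM in BEFs, 1.53, 2.2 and 1.83 FPKM in CiADCs-3d and 1.61, 2.24 and 1.91 FPKM in CiADCs-6d. All 6 CiADCs samples lay below the BEFs samples, and the induction days covered nearly the same range. It fell by 0.99 on the log2 scale by day 3 (SE 0.19, adjusted p = 0.00083), and its log2 fold change was -0.97 on day 6 (SE 0.19, adjusted p = 0.000779). Between the induction days it was 0.02 (SE 0.20, adjusted p = 0.947).

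CCNE2, the second E-type cyclin and itself an E2F target, had a dip on day 3. Its FPKM was 3.35, 4.41 and 3.02 in BEFs, 0.31, 0.09 and 0.45 in CiADCs-3d and 2.35, 2.51 and 1.60 in CiADCs-6d. The CiADCs-3d values rest on 15, 5 and 28 expected counts, beside 184 to 282 in BEFs and 79 to 141 in CiADCs-6d. The 3 groups did not overlap: the CiADCs-3d samples were lowest and the CiADCs-6d samples lay between them and BEFs.

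The day 3 level of CCNE2 was 12.7-fold below that of BEFs, a log2 fold change of -3.67 (SE 0.37, adjusted p = 3.45e-06), the largest change among the 10 genes in any comparison. From day 3 to day 6 it rose 7.41-fold, or 2.89 on the log2 scale (SE 0.37, adjusted p = 0.000379). The remaining difference of day 6 from BEFs was -0.78 (SE 0.30, adjusted p = 0.0341). That last call was lost without BEFs sample 1 (-0.83, adjusted p = 0.0577), without BEFs sample 2 (-0.62, adjusted p = 0.136), without CiADCs-6d sample 3 (-0.64, adjusted p = 0.119) and on log2(FPKM + 0.1) in limma (-0.72, adjusted p = 0.0883). The fall by day 3 and the rise to day 6 passed under every alternative in which the gene was tested.

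As a share of the summed E-type cyclin FPKM, CCNE2 was 47.4 ± 2.83% in BEFs, 13.5 ± 8.42% on day 3 and 52.6 ± 6.88% on day 6 (SD, n = 3). Its share in CiADCs-6d overlapped that in BEFs, since both E-type cyclins were then below BEFs by similar amounts. The summed level was 7.54 ± 1.098 FPKM in BEFs, 2.14 ± 0.26 FPKM on day 3 and 4.07 ± 0.63 FPKM on day 6.

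**Figure D3:**
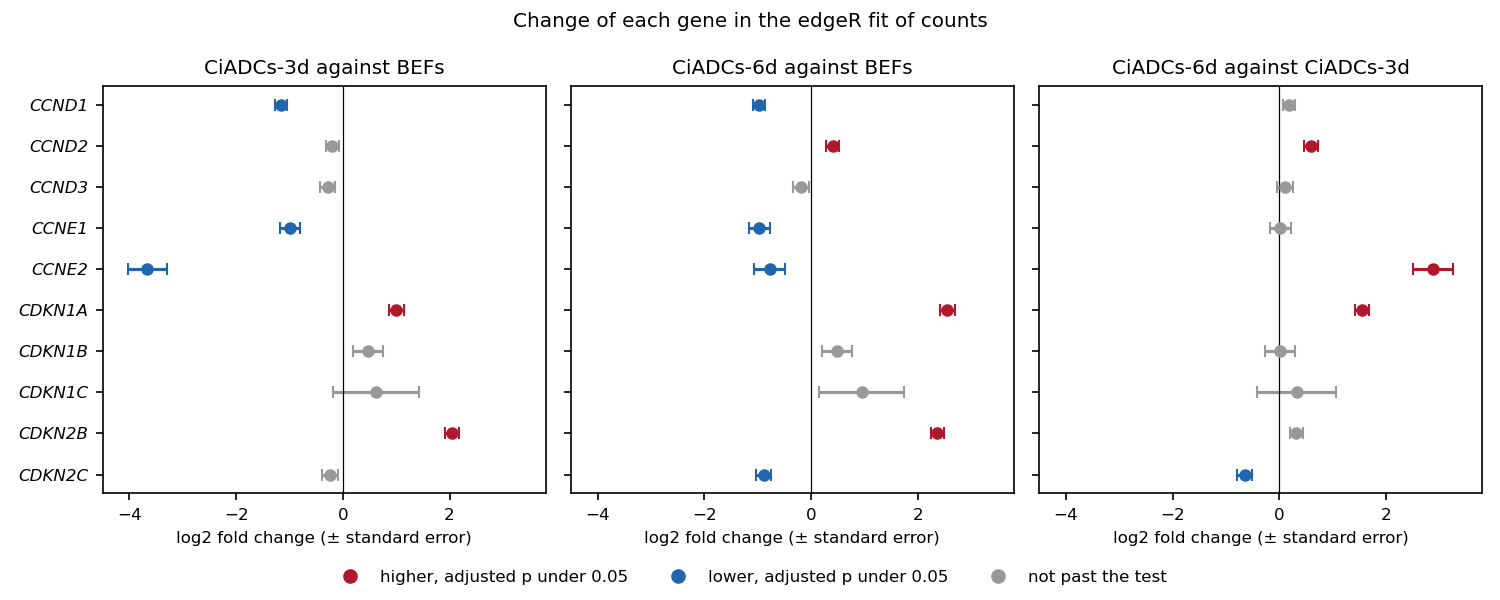
Log2 fold change of each gene in the 3 comparisons, from the edgeR fit to counts, with bars of 1 SE. Red points were higher and blue points lower at an adjusted p under 0.05, and grey points did not pass. CCND1, CCNE1 and CCNE2 lie below 0 against BEFs on both days, CDKN1A and CDKN2B lie above it, and CDKN1C has the widest bars.

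CDKN1A, the gene of p21, a broad inhibitor of cyclin-CDK complexes, had the largest rise of the 5 inhibitors from BEFs to day 6. It stood at 2.56 (SE 0.14) on the log2 scale beside 2.37 (SE 0.13) for CDKN2B, and the gap was not tested. By day 3 CDKN2B rose more. CDKN1A was 86.5, 85.0 and 74.8 FPKM in BEFs, 213, 139 and 154 FPKM in CiADCs-3d and 484, 522 and 492 FPKM in CiADCs-6d. No group overlapped another, and the CiADCs-3d samples, sample 1 above all, spread more widely than the rest. The increase was 2-fold by day 3, with a log2 fold change of 1.00 (SE 0.14, adjusted p = 5.12e-05), and 5.88-fold by day 6, or 2.56 (SE 0.14, adjusted p = 1.68e-08). The step from day 3 to day 6 was 1.55 (SE 0.14, adjusted p = 6.91e-05), and all of these calls held in every leave-one-out fit.

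CDKN1B, the p27 inhibitor of quiescent cells, was 3.75, 3.45 and 2.40 FPKM in BEFs, 5.12, 3.95 and 4.43 FPKM in CiADCs-3d and 2.49, 6.66 and 4.69 FPKM in CiADCs-6d. All CiADCs-3d samples were above BEFs, and CiADCs-6d held both the second lowest and the highest of the 9 values. No comparison passed, with log2 fold changes of 0.47 on day 3 (SE 0.29, adjusted p = 0.175) and 0.49 on day 6 (SE 0.29, adjusted p = 0.151). CiADCs-6d sample 1 decided this: without it the day 3 value was 0.49 (adjusted p = 0.0356) and the day 6 value 0.77 (adjusted p = 0.00507), and both passed.

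CDKN1C, the p57 inhibitor encoded by an imprinted gene in mammals, was barely detected, with 2, 8 and 7 expected counts in BEFs, 0, 8 and 17 in CiADCs-3d and 6, 13 and 11 in CiADCs-6d. A count of 0 allows up to 3 counts, or 0.162 CPM, in CiADCs-3d sample 1. The groups overlapped throughout, and the log2 fold changes of 0.63 on day 3 (SE 0.81, adjusted p = 0.526) and 0.95 on day 6 (SE 0.79, adjusted p = 0.306) had errors too wide to show a change at this depth.

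CDKN1A therefore carried the CIP/KIP sum. It made up 96.0 ± 0.45% of the summed FPKM of the 3 genes in BEFs, 97.2 ± 0.43% on day 3 and 99.02 ± 0.40% on day 6. The sum was 85.5 ± 7.03 FPKM, 173 ± 39.3 FPKM and 504 ± 22.1 FPKM in the same order, without overlap between groups (exact permutation p = 0.1 in each comparison).

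CDKN2B, the p15 inhibitor known in epithelial cells as a TGF-beta target, was 10.1, 9.98 and 8.68 FPKM in BEFs, 49.0, 37.4 and 34.5 FPKM in CiADCs-3d and 52.6, 49.1 and 50.7 FPKM in CiADCs-6d. Every CiADCs sample was over 3 times as high as any BEFs sample, and CiADCs-3d sample 1 came close to the CiADCs-6d samples, with which it overlapped in CPM but not in FPKM. The rise by day 3 was 4.14-fold, or 2.05 on the log2 scale (SE 0.13, adjusted p = 5.65e-08), and that by day 6 was 5.17-fold, or 2.37 (SE 0.13, adjusted p = 1.34e-08). From day 3 to day 6 the difference was 0.32 (SE 0.12, adjusted p = 0.0694), and without CiADCs-3d sample 1 it was 0.43 and passed (adjusted p = 0.00932).

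CDKN2C, the p18 inhibitor, gave different answers in counts and in FPKM. In CPM it was 66.9, 68.5 and 58.6 in BEFs, 57.8, 47.0 and 59.2 in CiADCs-3d and 27.3, 37.9 and 39.6 in CiADCs-6d. CiADCs-3d overlapped BEFs, and the CiADCs-6d samples were the 3 lowest. The test on counts gave a log2 fold change of -0.24 on day 3 (SE 0.14, adjusted p = 0.165), and CDKN2C fell by 0.89 by day 6 (SE 0.15, adjusted p = 0.00017) and by 0.65 between the induction days (SE 0.15, adjusted p = 0.00747). In FPKM it was 33.5, 35.9 and 30.6 in BEFs, 46.0, 37.1 and 44.8 in CiADCs-3d and 20.5, 30.7 and 30.1 in CiADCs-6d. On that scale all CiADCs-3d samples were above BEFs and CiADCs-6d overlapped BEFs. In limma on log2(FPKM + 1) the day 3 value turned positive (0.34), the day 6 value was -0.31 and no longer passed (adjusted p = 0.0886), and the fall between the induction days still passed.

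The gap between the scales lies in the transcript length that each FPKM value was divided by, which follows from a gene's count, its FPKM and the library total. For CDKN2C it was 1915 ± 45.6 bases in BEFs, 1282 ± 27.2 bases in CiADCs-3d and 1309 ± 41.2 bases in CiADCs-6d (SD, n = 3), 0.669 and 0.684 times the length in BEFs. RSEM, which the submitters' notes name, averages this length over a gene's transcripts by their estimated abundance. Among 10308 genes that reached an FPKM of 1 in all 9 samples, only 2 on day 3 and 3 on day 6, CDKN2C included, had a ratio as low, and the median ratio was 1. CDKN2C was singled out for this after its values were seen, and no test was made. Of the other genes, CCND1 stood at 1188 bases in all 9 samples, CDKN2B at 2667 bases in all groups and CDKN1A at 2379, 2361 and 2359 bases. CCNE1 had a mean of 2264 bases in BEFs, 2445 bases in CiADCs-3d and 2460 bases in CiADCs-6d, 1.08 and 1.09 times the length in BEFs, and ranged from 2124 to 2780 bases within CiADCs-6d alone. CCND3 was at 0.966 and 0.978 times its length in BEFs. For CDKN1C, at 1.03 and 1.15 times, the value rests on few counts.

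**Figure D4:**
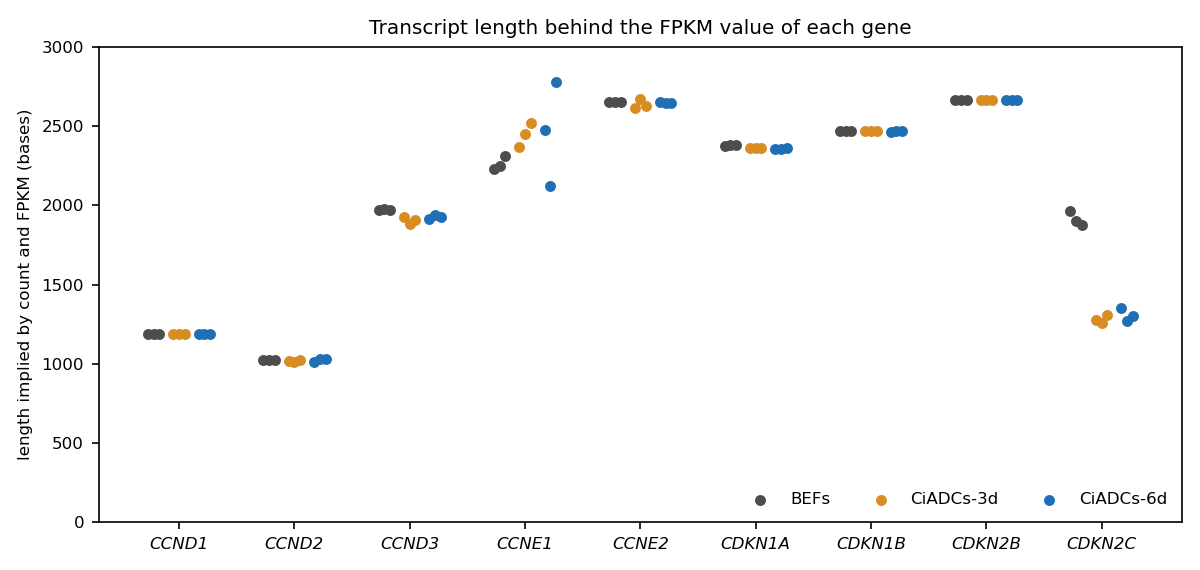
Transcript length in bases implied by the expected count and FPKM of each gene, with 1 point per sample, coloured by group; CDKN1C is left out because its FPKM has too few digits. CDKN2C lies near 1915 bases in BEFs and at 1257 to 1353 bases in the CiADCs samples, while the points of most other genes fall on each other.

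The INK4 inhibitors summed to 42.9 ± 3.33 FPKM in BEFs, 82.9 ± 10.7 FPKM in CiADCs-3d and 77.9 ± 4.15 FPKM in CiADCs-6d. CDKN2B supplied 22.3 ± 0.75% of that sum in BEFs, 48.4 ± 4.34% on day 3 and 65.4 ± 5.70% on day 6. Since CDKN2C enters with its shorter length in CiADCs, these sums depend on the scale. With CPM divided by 1 fixed length per gene, the BEFs sum was 59.1 and the CDKN2B share in BEFs 16.5%.

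All 5 inhibitors together summed to 128 ± 10.1 FPKM in BEFs, 256 ± 49.98 FPKM on day 3 and 582 ± 24.8 FPKM on day 6. The 5 cyclins summed to 245 ± 21.2, 132 ± 8.22 and 163 ± 15.2 FPKM in the same order. Inhibitor FPKM divided by cyclin FPKM was 0.53 ± 0.083 in BEFs, 1.94 ± 0.25 on day 3 and 3.605 ± 0.48 on day 6. CDKN1A divided by CCND1 was 0.44 ± 0.074, 1.96 ± 0.31 and 5.15 ± 0.71. No group overlapped another in either ratio (exact permutation p = 0.1). These are ratios of RNA and do not give the ratio of the proteins.

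The partners of the 10 genes were followed in 10 lists, to be read beside the 29.1% of all tested genes that were lower and 30.9% that were higher on day 3, and 31.9% and 35.6% on day 6. Of the 10 G1 kinases, activating kinase subunits and pocket proteins, 4 were lower and 3 higher on day 3, and 3 were lower and 3 higher on day 6, with median log2 fold changes of -0.24 and -0.32. Over the alternatives 3 to 6 of them were lower on day 6. CDK4, the kinase that CCND1 and the INK4 proteins share, fell from 66.3 ± 1.00 FPKM in BEFs to 30.7 ± 2.01 FPKM on day 3 and 23.0 ± 3.83 FPKM on day 6, a log2 fold change of -1.57 on day 6 (SE 0.12, adjusted p = 3.22e-07). CDC25A, the phosphatase that activates CDK2, was at -1.44 on day 6 (SE 0.15, adjusted p = 4.98e-06). RB1, the gene of the retinoblastoma protein, rose from 3.72 ± 0.59 FPKM to 9.19 ± 2.03 FPKM, or by 1.27 (SE 0.18, adjusted p = 4.48e-05). CDK2 and CDK6, added after their values were seen, were at -0.60 (adjusted p = 0.000961) and -0.35 (adjusted p = 0.0584) on day 6. In mean FPKM, CDK6 went the other way, from 13.3 ± 1.07 in BEFs to 15.7 ± 4.08 on day 6. Its direction thus depends on the scale, and the FPKM ranges of these groups overlapped.

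Of the other INK4 and CDK inhibitors, CDKN2A and CDKN2D were higher and CDKN3, a phosphatase of CDKs that follows the cell cycle, lower on both days, with CDKN3 at -4.12 on day 6. CDKN2A, which lies beside CDKN2B in the ARS-UCD2.0 assembly, rose from 55.1 ± 2.90 FPKM in BEFs to 152 ± 10.5 FPKM on day 3 and 143 ± 8.42 FPKM on day 6, by 1.44 (adjusted p = 1.54e-07) and 1.34 (adjusted p = 2.25e-07) on the log2 scale. Like CDKN2B it had its increase by day 3, but the gene is known to encode both p16 and ARF, and the gene-level values do not separate them. CDKN2D (p19) was 10.5 ± 1.15 FPKM in BEFs, 19.0 ± 9.19 FPKM on day 3 and 56.5 ± 22.1 FPKM on day 6. Its day 6 increase of 2.34 had an adjusted p of 5.31e-05, and its day 3 call (0.81, adjusted p = 0.0498) was lost under 11 of the alternatives.

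Downstream of the G1 kinases the lists moved one way. All 18 E2F targets of S phase were lower on day 6 and 17 of 18 on day 3, with median log2 fold changes of -2.80 and -2.90. Of the 10 mitotic markers, 10 were lower on both days, with medians of -3.81 on day 3 and -5.72 on day 6. Of 7 S, G2 and M phase cyclins with CDK1, 6 were lower on both days, with medians of -3.96 and -5.18. RRM2, a subunit of ribonucleotide reductase, went from 72.1 ± 5.16 FPKM in BEFs to 0.33 ± 0.17 FPKM in CiADCs-6d, MKI67, the proliferation marker, from 51.6 ± 2.78 to 0.52 ± 0.14 FPKM, and CCNA2, the S phase cyclin, from 40.1 ± 3.76 to 0.67 ± 0.05 FPKM. In the DREAM and MuvB list, 8 of 9 genes were lower on day 3 and 6 of 9 on day 6, with medians of -0.69 and -0.83 and with FOXM1, the factor of G2 genes, at -6.61 on day 6.

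**Figure D5:**
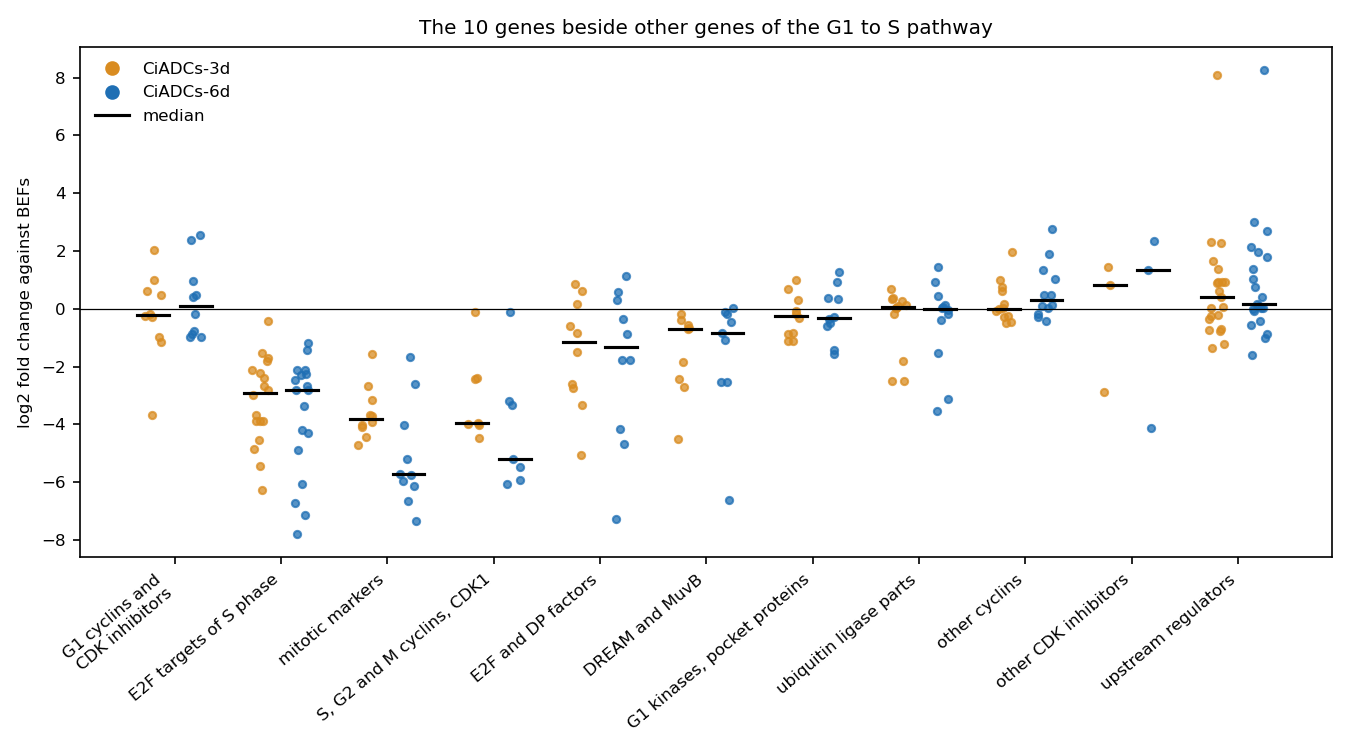
Log2 fold changes against BEFs for the 10 G1 cyclins and CDK inhibitors (first column) and for all tested genes of the 10 pathway lists. CiADCs-3d and CiADCs-6d stand side by side, with 1 point per gene and a bar at the median. The E2F targets, mitotic markers and S, G2 and M phase cyclins lie below 0 with medians from -2.80 to -5.72, while the other cyclins and the upstream regulators scatter about 0.

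The return of CCNE2 on day 6 was set beside the E2F targets. From day 3 to day 6, 9 of the 18 fell further and 2 rose, against 13.6% and 14.4% of all tested genes. CDC6, a loader of the replicative helicase, rose by 1.23 (adjusted p = 0.0062) and TK1, the thymidine kinase, by 0.38 (adjusted p = 0.0351). Over the alternatives 5 to 14 fell and 1 to 2 rose. CCNE2 rose by 2.89 over the same step, and its level on day 6 lay at -0.78 against BEFs, while the E2F targets lay between -7.79 and -1.17. Of 10 E2F and DP factors, 7 were lower and 2 higher on day 3, and 7 lower and 3 higher on day 6, with medians of -1.15 and -1.32. E2F1, an activator of G1 exit, was at -4.67 and E2F8, a repressor, at -7.26, while the higher ones were E2F5 (1.14) and E2F6 (0.59), which are repressors too, and the DP factor gene TFDP2 (0.31).

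Among 12 parts of the ubiquitin ligases that degrade these proteins, 3 were higher and 3 lower on day 3, and 3 higher and 4 lower on day 6, with medians of 0.07 and 0. SKP2, the subunit that recognises p27, fell by 1.54 on the log2 scale (SE 0.17, adjusted p = 6.21e-06) and its cofactor CKS1B fell by 3.13 (SE 0.28, adjusted p = 1.10e-06). DTL, which recognises p21 and CDT1 during replication, fell by 3.55 (SE 0.19, adjusted p = 1.30e-08). Higher were FBXO31 (1.45), FBXW7 (0.91), the subunit for cyclin E, and AMBRA1 (0.43), the receptor for D-type cyclins.

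Of 12 other cyclins, 5 were higher and 1 lower on day 6 (median 0.29), led by CCNL1 (2.78) and CCNL2 (1.91), which act in transcription and splicing, and by CCNG1 (1.34), which rose from 121 ± 4.42 FPKM to 314 ± 27.3 FPKM. Of 21 upstream regulators of the 10 genes, 11 were higher and 5 lower on day 3 and 10 higher and 5 lower on day 6, with medians of 0.41 and 0.15. RARB, a retinoic acid receptor and a known target of retinoids, went from 0.23 ± 0.089 FPKM to 70.6 ± 4.07 FPKM. KLF4, a factor known to act on CDKN1A, rose by 3.02 (adjusted p = 1.03e-08), and SMAD3, the effector of the TGF-beta receptor, by 2.69 (adjusted p = 1.63e-09). MYC, known to repress CDKN1A and CDKN2B and added after its values were seen, rose from 13.9 ± 1.78 FPKM to 49.1 ± 6.25 FPKM, by 1.79 (adjusted p = 4.17e-06).

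Markers of other cells were read beside these results. Their sums in BEFs, on day 3 and on day 6 were 2.29 to 3.38, 36.6 to 52.4 and 23.5 to 37.4 FPKM for endothelium, where VWF made most of the increase, and 0.86 to 1.12, 26.3 to 28.2 and 39.5 to 49.8 FPKM for blood and immune cells, where CD14 made most of it and PTPRC, the defining leukocyte gene, was at 0 in all samples. Of 3 tested endothelial markers, 2 were higher and 0 lower on day 3. On day 6, 1 was higher and 1 lower, PECAM1 (-0.76, adjusted p = 0.0345). All 3 tested blood and immune markers were higher on both days. Of all tested genes, 30.9% were higher and 29.1% lower on day 3, and 35.6% and 31.9% on day 6. Keratinocyte markers summed to 15.2 to 27.4, 10.5 to 16.7 and 21.9 to 25.9 FPKM. Of the 5 tested, 3 were lower (KRT5, KRT14 and DSP) and 2 higher (KRT1 and TP63) on day 3. On day 6, 1 was lower (DSP) and 1 higher (TP63). Cartilage markers summed to 47.8 to 49.0, 12.5 to 14.7 and 9.68 to 12.4 FPKM. ACAN made most of the cartilage sum in BEFs, with 41.3 FPKM, and was at 3.74 FPKM on day 6. Of the 4 tested cartilage markers, 2 were lower and 2 higher on day 6, the latter COL2A1 (1.51) and COL11A2 (2.90). Muscle markers stayed at or below 2.82 FPKM, with MYOD1 and MYOG at 0 throughout, and melanocyte and Schwann cell markers at or below 10.6 FPKM, with TYR and DCT at 0 throughout. The part of such cells in the changes of the 10 genes was not tested.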

How the data were processed

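RNA was sequenced in 9 samples, 3 from BEFs and 3 from each induction day. The table deposited by the authors gives an expected count, an estimate of reads that is not normalized, for each gene and sample. It also gives FPKM, which the authors scaled to transcript length and library total. The submitters' processing notes list RSEM, StringTie 1.3.1, HISAT2 2.2.4 and fastp 0.18.0, whereas the methods name TopHat and HTSeq. The labels name a Ribo-Zero kit and the methods oligo(dT) beads for eukaryotic mRNA, and the genome build is not given in the sources used here. Strand was not stated, so reads of overlapping genes may be shared.

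Counts were rounded and filtered by filterByExpr of edgeR 4.0.16 (minimum count 10, minimum total 15), which kept 14020 genes and removed 7492. Libraries were scaled by TMM and fitted by quasi-likelihood, with all 9 samples, 1 coefficient per group and no replicate block. Genes were called at a Benjamini-Hochberg adjusted p under 0.05, without the threshold on the log2 fold change (1) that the methods add. An SE is the log2 fold change divided by the root of F. Values are mean ± SD. Sums and ratios were tested with exact two-sided permutation, over 3 comparisons in each family of 14 measures and without adjustment, since no p can be below 0.1. The implied length is the count divided by FPKM and by the library total, in bases. R 4.3.3, limma 3.58.1, DESeq2 1.42.0 and Python 3.11.15 with matplotlib 3.10.9 were used, and the script was tested on simulated data.

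The 10 genes, the 10 pathway lists (112 genes) and the 8 marker lists (52 genes) were chosen with earlier results of these data known. From each pathway list the text names up to 3 genes with the largest absolute log2 fold change of day 6, from each marker list up to 2 of the highest level, and for each of the 10 genes the tested gene of nearest pattern. Some genes that the rule would name are not reported here. Others named were chosen after their values were seen, or because a count of 5 or fewer held them. List members with another symbol in the table, 20 in all, were matched by gene ID through RefSeq (ARS-UCD2.0). As alternatives, the fit was limited to the groups compared, given a replicate block or the fold threshold, run without each sample in turn, scaled by upper quartile or by total counts, unfiltered, or filtered to 10 counts in all samples, and DESeq2 and limma (log2 FPKM, pseudocount 1 or 0.1) were run. Leaving out the CiADCs samples numbered 1 was added after the data were seen.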

Additional observations from a re-analysis of the deposited data

How the results depend on the processing

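Of the fold changes of the 10 genes recomputed under the alternatives, 550 kept direction and side of the threshold, 9 newly passed, 11 no longer passed and 22 changed sign. The number of the 10 genes lower on day 6 than in BEFs (4) was 2 with limma on log2(FPKM + 0.1) and 0 with the fold threshold, which also left 0 of 1 lower on day 6 than on day 3. With counts scaled by TMM and a fixed length, BEFs sums were 59.1 for the INK4 inhibitors and 146 for all 5 inhibitors (42.9 and 128 in FPKM), and the CDKN2B share was 16.5% (22.3%). Signs changed for CDKN2C on day 3 in limma on log2(FPKM + 1) with and without a filter (0.34 in both) and on log2(FPKM + 0.1) (0.35). Apart from CDKN1C on day 3 with a sample left out, the other sign changes were in values of day 6 against day 3 that passed under no alternative. Among them were CDKN1B with DESeq2 (-0.005), upper-quartile scaling (-0.045) and limma (-0.038 on log2(FPKM + 1) with and without a filter and -0.064 with 0.1). CCNE1 changed sign with upper-quartile scaling (-0.037) and without the CiADCs samples numbered 1 (-0.063), and CCND3 without those samples (-0.14). With samples left out in turn, values of day 6 against day 3 ranged from -0.078 to 0.22 for CCND3, -0.16 to 0.16 for CCNE1, -0.36 to 0.28 for CDKN1B and -0.25 to 1.24 for CDKN1C, and CDKN1C on day 3 from -0.30 to 1.18. The cause of these shifts was not tested. Without the CiADCs samples numbered 1, CDKN2C on day 3 (-0.26, adjusted p = 0.0452), CCND3 (-0.35, adjusted p = 0.0222) and CDKN1B (0.77, adjusted p = 0.0016) on day 6, and CDKN2B between the induction days (0.40, adjusted p = 0.00328) passed in edgeR, and no call was lost.

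The samples carry numbers, but deviations of same-numbered samples correlated at -0.089 to 0.018 for BEFs and CiADCs-3d, -0.003 to 0.254 for BEFs and CiADCs-6d and -0.451 to -0.16 for the induction days, so the numbers were not taken to pair them, and not every sample correlated best with its own number. With a replicate block, calls over all genes went from 4329 higher and 4083 lower to 4127 and 3836 on day 3, from 4991 and 4469 to 4807 and 4306 on day 6, and from 2019 and 1904 to 1617 and 1493 between the induction days. Among the 10 genes the block ended 1 call, CCNE2 on day 6 (-0.78, adjusted p = 0.0713), and turned CDKN1B between the induction days to -0.025. Over all alternatives the list counts of each day against BEFs that moved by over 1.5 times from a count of at least 3 were the lower G1 kinases and pocket proteins on day 6 (3 to 6) and the lower upstream regulators on day 3 (5 to 8). Depth limits CDKN1C, at 17 counts or fewer in each sample, and CCNE2 on day 3, and 3 samples per group hold every exact permutation p at or above 0.1.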

Other observations

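For 9 of the 10 genes, all but CCND1, the other tested gene of nearest pattern among 14010 genes is given, taken as the smallest root mean square difference over the 9 samples of log2(CPM + 0.5) centred on BEFs. CCND3 had the closest neighbour, DOHH, a deoxyhypusine hydroxylase gene, at 0.061. CCND2 was nearest to POLR3D, an RNA polymerase III subunit gene, at 0.084, and CCNE1 to SF3A1, a splicing factor gene, at 0.12. CDKN1A was nearest to TNFSF9, the gene of the 4-1BB ligand, at 0.12, and CDKN2B to CFLAR, the gene of the caspase-8 regulator c-FLIP, at 0.12. For CDKN2C it was SCD5, a stearoyl-CoA desaturase gene, at 0.12, for CDKN1B BCAP29, at 0.13, and for CDKN1C TLE6, at 0.20, from few counts. CCNE2 had no close neighbour: the nearest, Kcnc4, a potassium channel gene, differed by 0.59, so no other tested gene had the same dip and return to within that distance. The CCNE2 values of CiADCs-3d rest on 15, 5 and 28 expected counts, and the part of their scatter in that distance was not tested. These are descriptions of 9 samples and carry no test.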
